A study of Mus musculus with 6 samples.

Results

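The vascular endothelial growth factor (VEGF) system was described in mouse colon through 8 genes, found by their symbols among the 17778 genes of the expression table. They were the ligand genes *Vegfa*, *Vegfb*, *Vegfc* and *Pgf* (placental growth factor), the receptor tyrosine kinase genes *Flt1* (VEGFR1) and *Kdr* (VEGFR2), and the co-receptor genes *Nrp1* and *Nrp2* (neuropilins). These genes were chosen from earlier results of the same mice, in which the OP and OR groups had already been compared, so their values below are a description and carry no test. Male wild-type C57BL/6J mice were fed a high-fat diet (60% fat) for 16 weeks, to 21 weeks of age. Of the 42 mice on this diet, the 10 that gained most weight were called obesity-prone (OP) and the 10 that gained least obesity-resistant (OR). From either class, the colons of 3 mice were taken for RNA sequencing. OP and OR mice thus shared strain, genotype, diet and age, and were told apart by their weight gain alone.

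VEGF-A, secreted by epithelium, macrophages and other cells, is the main growth and permeability factor of blood vessels. It signals through VEGFR2 on endothelial cells, whereas VEGFR1 binds it more tightly, signals weakly and, also in a soluble form, holds it back. VEGF-B and placental growth factor bind VEGFR1, VEGF-C acts mostly on lymphatic vessels through VEGFR3 (*Flt4*), and neuropilins hold VEGFs and semaphorins next to the signalling receptors. In the intestine, capillaries under the epithelium have a fenestrated wall that VEGF-A is known to maintain, and low oxygen induces *Vegfa* through hypoxia-inducible factors (HIFs).

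The promoter windows of the ligand and receptors whose ratio is followed below, *Vegfa*, *Flt1* and *Kdr*, are shown from 250 bases before to 50 bases after the start site, 5′ to 3′ on the gene's own strand. They were taken from RefSeq on build GRCm38.p6, whereas the submitters' processing notes name GRCm39. Capitals mark matches, on either strand, to ACGTG and GCGTG (cores of the HIF site), GGGCGG (GC box) and GGAAG (ETS core). The windows lie at chr17:46032328-46032627 for *Vegfa*, chr5:147725962-147726261 for *Flt1* and chr5:75978406-75978705 for *Kdr*, all on the minus strand. For *Vegfa*, which has 2 windows in the table, the one farthest upstream is given.
Vegfa: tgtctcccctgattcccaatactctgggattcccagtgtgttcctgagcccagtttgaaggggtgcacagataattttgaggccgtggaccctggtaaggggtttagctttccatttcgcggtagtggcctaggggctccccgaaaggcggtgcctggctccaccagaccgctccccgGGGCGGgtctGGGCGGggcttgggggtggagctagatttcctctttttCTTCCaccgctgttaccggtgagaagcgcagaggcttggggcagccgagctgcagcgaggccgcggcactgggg
Flt1: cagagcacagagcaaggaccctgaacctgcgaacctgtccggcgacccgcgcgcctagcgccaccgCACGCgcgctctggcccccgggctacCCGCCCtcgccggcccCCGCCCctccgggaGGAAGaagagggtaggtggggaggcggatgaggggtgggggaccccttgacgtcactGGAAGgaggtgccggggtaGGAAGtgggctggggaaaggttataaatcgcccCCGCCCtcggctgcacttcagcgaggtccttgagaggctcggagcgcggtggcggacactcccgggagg
Kdr: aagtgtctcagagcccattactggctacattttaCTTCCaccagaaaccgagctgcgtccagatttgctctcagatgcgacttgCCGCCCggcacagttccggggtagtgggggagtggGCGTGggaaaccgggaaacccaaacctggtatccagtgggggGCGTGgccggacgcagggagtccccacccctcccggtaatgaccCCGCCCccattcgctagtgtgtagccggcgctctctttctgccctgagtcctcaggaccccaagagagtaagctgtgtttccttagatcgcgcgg
The *Vegfa* window held 2 GC boxes, which began 72 and 62 bases before the start site, and 1 ETS core 24 bases before it, with no HIF core. Sequence farther upstream than 250 bases was not searched, so the absence of a HIF core holds for this window only. The *Flt1* window held 3 GC boxes, 3 ETS cores and 1 GCGTG core, and the *Kdr* window 2 GC boxes, 1 ETS core and 2 GCGTG cores. No marked matches overlapped one another in these windows. Among 32851 mouse promoter windows of the same length, 35.7% held GGGCGG, 71.4% held GGAAG, 32.4% held GCGTG and 19.6% held ACGTG, so each of these letter strings is common. GC content was 62.0% for *Vegfa*, 70.7% for *Flt1* and 60.7% for *Kdr*, against a median of 52.7% over all windows. The other members had windows too, and their matches ranged from 2 GC boxes and nothing else in *Vegfc* to 5 GC boxes and 2 GCGTG cores in *Nrp2*, with 1 overlap between matches.

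Expression was given as FPKM (fragments per kilobase of transcript, scaled to the mapped fragments of the library), which allows for transcript length, so that levels of different genes can be set side by side. The FPKM values summed to between 585350 and 600028 in a mouse, of whose genes 16287 to 16619 were above 0. FPKM carries no read totals, so depth and counting error are unknown, which matters most for members near or below 1 FPKM. OP mice 1 and 2 stood apart from the other 4 mice, OP mouse 1 on the first principal component (45.9% of the variance) and OP mouse 2 on the second (27.7%), and values without them are given where they matter. The colon label was checked against epithelial markers, of which *Epcam* lay between 934.63 and 1187.94 FPKM and *Cdh1* (E-cadherin) between 255.07 and 382.4 FPKM in the 6 mice. Of the endothelial markers, *Pecam1* (CD31) lay between 4.25 and 11.72 FPKM, *Cdh5* (VE-cadherin) between 0.87 and 3.86 FPKM and the lymphatic regulator *Prox1* between 0.44 and 1.43 FPKM. In whole colon, fewer cells of a type and less RNA per cell cannot be told apart.

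*Vegfa* was the most abundant member in every mouse, and higher in OP mice. It had 56.62, 47.25 and 43.58 FPKM in OP mice 1 to 3 and 27.53, 28.2 and 32.36 FPKM in OR mice 1 to 3. The lowest OP mouse lay above the highest OR mouse. The means were 49.2 ± 6.72 FPKM (SD, n = 3) in OP mice and 29.4 ± 2.62 FPKM (SD, n = 3) in OR mice, a ratio of 1.67. On the log2(FPKM + 1) scale, used for every fold change below, the difference OP minus OR was 0.72 (SE 0.15), and it lay between 0.61 and 0.85 with each mouse left out and under all other settings tried. These values sum all *Vegfa* isoforms.

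The other ligands lay lower and their groups overlapped. *Vegfb*, known for roles in fat handling and vessel survival, had 6.62, 15.53 and 15.05 FPKM in the OP mice and 16.53, 13.05 and 20.53 FPKM in the OR mice. One OP mouse, the first, was far below the other 5. The means of 12.4 ± 5.01 FPKM (SD, n = 3) and 16.7 ± 3.74 FPKM (SD, n = 3) gave a log2 difference of -0.46 (SE 0.33), which shrank to -0.10 without OP mouse 1. *Vegfc*, the lymphatic growth factor, had 1.1, 1.83 and 2.31 FPKM in the OP mice and 3, 1.72 and 2.71 FPKM in the OR mice. Again OP mouse 1 was lowest, and the log2 difference of -0.35 (SE 0.25) became -0.16 without it. *Pgf* was close to the detection filter, with 0.57, 0.45 and 0.4 FPKM in the OP mice and 0.51, 0.87 and 0.26 FPKM in the OR mice. Both the highest and the lowest *Pgf* values belonged to OR mice. Its log2 difference was -0.05 (SE 0.19) and turned to 0.09 without OR mouse 2.

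Added together, the 4 ligand genes came to 64.91, 65.06 and 61.34 FPKM in the OP mice and 47.57, 43.84 and 55.86 FPKM in the OR mice. The make-up of that sum differed as well. For *Vegfa* its share was 87.2%, 72.6% and 71.0% among the OP mice, against 57.9%, 64.3% and 57.9% among the OR mice. For *Vegfb* it was 10.2%, 23.9% and 24.5% among the OP mice, against 34.7%, 29.8% and 36.8% among the OR mice. Neither share overlapped between the groups, and the *Vegfa* share was highest and the *Vegfb* share lowest in OP mouse 1. *Vegfa* made up most of the sum and was chosen with its direction known. Shares that moved this way were therefore largely set by the choice of genes, and *Vegfb* itself overlapped between the groups.

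The receptor kinases were lower in OP mice on average. *Flt1*, the decoy-like receptor, had 1.12, 0.88 and 1.36 FPKM in the OP mice and 1.64, 2.37 and 3.26 FPKM in the OR mice. Every OP mouse was below every OR mouse, though OP mouse 3 and OR mouse 1 were only a little apart. The means were 1.12 ± 0.240 FPKM (SD, n = 3) and 2.42 ± 0.811 FPKM (SD, n = 3), 2.16 times higher in OR mice, and the log2 difference was -0.67 (SE 0.22). *Kdr*, the main signalling receptor, had 0.91, 0.38 and 1.57 FPKM in the OP mice and 1.24, 2.85 and 3.29 FPKM in the OR mice. Here the groups overlapped, since OP mouse 3 exceeded OR mouse 1, and OP mouse 2 had the lowest value of all. Its means of 0.953 ± 0.596 FPKM (SD, n = 3) and 2.46 ± 1.08 FPKM (SD, n = 3) stood 2.58 times apart, with a log2 difference of -0.82 (SE 0.32) that was -0.59 without OP mouse 2. Because both genes are low, adding 1 to each value compresses their fold changes. With 0.1 added in its place, the log2 differences were -1.02 for *Flt1* and -1.35 for *Kdr*. The reads of soluble and membrane-bound *Flt1* were not separated in the table.

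Of the co-receptors, *Nrp1*, which presents VEGF-A to VEGFR2, had 1.45, 2.06 and 3.12 FPKM in the OP mice and 3.31, 3.52 and 4.48 FPKM in the OR mice. The OP mice were all lower. The means were 2.21 ± 0.845 FPKM (SD, n = 3) and 3.77 ± 0.624 FPKM (SD, n = 3), 1.71 times higher in OR mice, and the log2 difference was -0.60 (SE 0.24), or -0.42 without OP mouse 1. *Nrp2*, which partners VEGFR3 on lymphatic and venous endothelium, had 2.51, 24.11 and 10.52 FPKM in the OP mice and 13.35, 7.63 and 15.97 FPKM in the OR mice. OP mice held both extremes, 9.61 times apart. The means were nearly equal, at 12.4 ± 10.9 FPKM (SD, n = 3) and 12.3 ± 4.26 FPKM (SD, n = 3). Its log2 difference of -0.35 (SE 0.66) turned to 0.41 without OP mouse 1 and became -1.01 without OP mouse 2, so no direction can be given for *Nrp2*.

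**Figure D1:**
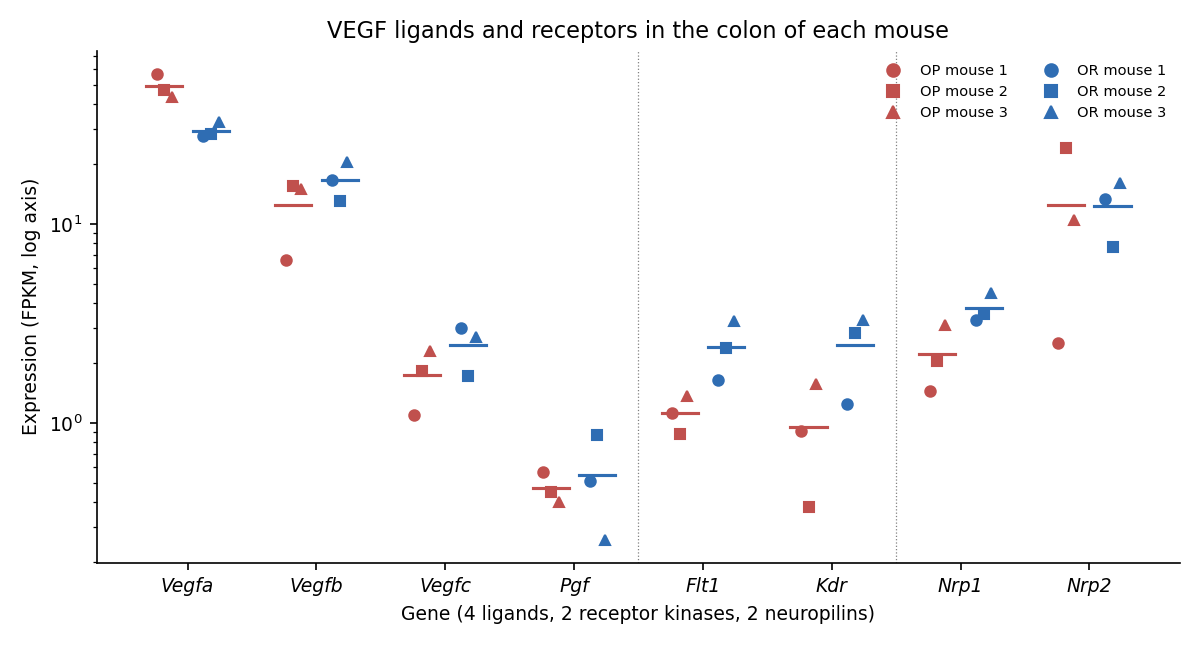
Expression in FPKM (log axis) of the 4 ligands, 2 receptor kinases and 2 neuropilins, with 1 point for each of 3 OP mice (red) and 3 OR mice (blue) and a horizontal line at each group mean. *Vegfa* in OP mice (43.58 to 56.62 FPKM) lies above OR mice (27.53 to 32.36 FPKM), *Flt1* and *Nrp1* in OP mice lie below OR mice, and the other members overlap.

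All 8 members passed the filter of at least 0.5 FPKM in at least 3 mice, as did 13520 genes in all. *Pgf* reached 0.5 FPKM in 1 OP mouse and 2 OR mice and *Kdr* in 2 OP mice and 3 OR mice, whereas the other members reached it in every mouse. Of the 8, 7 had a log2 difference below 0, as did 70.1% of the genes tested. The OP group lay wholly below the OR group for 2 members (6.81% of the genes tested) and wholly above it for 1 member (1.63%). None was called when the study's thresholds were applied to limma-trend (fold change from 1.2 upwards or 0.83 downwards, q-value below 0.2). Of the genes tested, 0.0222% passed. The study's own test, DESeq2, called more genes at these thresholds and was not repeated here. The median log2 difference was -0.41 over the members and -0.10 over all genes tested. With median-of-ratios scaling between mice the latter moved to 0.01 and *Vegfa* to 0.85, *Flt1* to -0.59, *Kdr* to -0.74 and *Nrp1* to -0.51, with no sign altered among the 8.

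Within each group the levels had a similar order. In OP mice the mean FPKM ran from high to low in the order *Vegfa*, *Vegfb*, *Nrp2*, *Nrp1*, *Vegfc*, *Flt1*, *Kdr* and *Pgf*, and among neighbours in that order only *Vegfa* and *Vegfb* had ranges that did not overlap. In OR mice the order was *Vegfa*, *Vegfb*, *Nrp2*, *Nrp1*, *Vegfc*, *Kdr*, *Flt1* and *Pgf*. There the neighbours without overlap were *Vegfa* and *Vegfb*, *Nrp2* and *Nrp1*, *Nrp1* and *Vegfc*, and *Flt1* and *Pgf*. *Vegfc*, *Kdr* and *Flt1*, with means from 2.42 to 2.48 FPKM, could not be ordered in OR mice.

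The ratio of ligand to receptor within a mouse does not depend on how mice are scaled to each other, and it separated the groups. The ratio of *Vegfa* to the sum of *Flt1* and *Kdr* was 27.9, 37.5 and 14.9 in OP mice 1 to 3, against 9.56, 5.40 and 4.94 in OR mice 1 to 3. Every OP mouse was higher than every OR mouse, and OP mouse 3 and OR mouse 1 were nearest to each other. On the log2 scale the ratio averaged 4.64 ± 0.681 (SD, n = 3) for OP against 2.67 ± 0.517 (SD, n = 3) for OR, a difference of 1.98 (SE 0.49). It was 1.90 without OP mouse 1 and 1.68 without OP mouse 2. *Flt1* and *Kdr* were both chosen with their direction known, so a difference of the ratio in this direction was set by the choice of genes, and only its size and its spread among mice are described.

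Taken singly, the receptors gave ratios of different steadiness. *Vegfa* over *Flt1* was 50.6, 53.7 and 32.0 among the OP mice, against 16.8, 11.9 and 9.93 among the OR mice, a log2 difference of 1.82 (SE 0.32). *Vegfa* over *Kdr* was 62.2, 124 and 27.8 among the OP mice, against 22.2, 9.89 and 9.84 among the OR mice, a log2 difference of 2.21 (SE 0.74). *Kdr* alone overlapped between the groups and its ratio to *Vegfa* did not, but *Vegfa* by itself already separated them. As with the summed receptors, the directions of the ratios to *Flt1*, *Kdr* and *Nrp1* were largely set by the choice of genes. *Vegfa* over *Nrp1* was 39.0, 22.9 and 13.97 among the OP mice, against 8.32, 8.01 and 7.22 among the OR mice, a log2 difference of 1.57 (SE 0.43). That ratio was the tightest in OR mice, with a log2 SD of 0.105 against 0.742 in OP mice. *Vegfa* over *Nrp2* ranged from 1.96 to 22.6 among the OP mice and from 2.03 to 3.70 among the OR mice, and here the groups overlapped. *Kdr* over *Flt1*, the balance of the receptors, had a log2 ratio of -0.43 ± 0.719 (SD, n = 3) for OP against -0.04 ± 0.338 (SD, n = 3) for OR, with a difference of -0.39 (SE 0.46) and overlap.

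**Figure D2:**
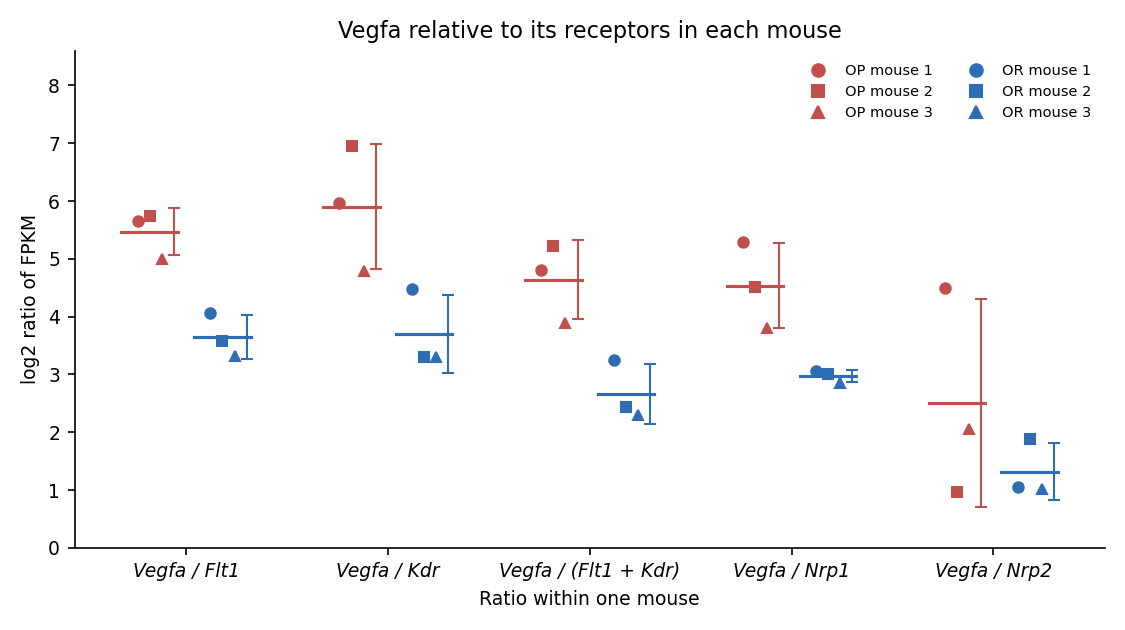
log2 ratio of *Vegfa* FPKM to the FPKM of each receptor, and to *Flt1* and *Kdr* summed, within each of 3 OP mice (red) and 3 OR mice (blue), with horizontal lines at group means and bars of 1 SD to either side. The OP mice lie above the OR mice for all ratios except that to *Nrp2*, and the gap is smallest between OP mouse 3 and OR mouse 1 for *Kdr*.

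The order of the mice within a group was also compared between ligand and receptors. Among OR mice, *Vegfa*, *Flt1*, *Kdr* and *Nrp1* all had the same order, highest in OR mouse 3, then OR mouse 2, then OR mouse 1. *Vegfa* was nearly equal in OR mice 1 and 2, at 27.53 and 28.2 FPKM, so its order between them is weak. Among OP mice, *Vegfa* was highest in mouse 1 and lowest in mouse 3, whereas *Flt1*, *Kdr* and *Nrp1* were all highest in mouse 3. *Nrp1* had exactly the reverse order of *Vegfa* there, and *Flt1* and *Kdr* were lowest in mouse 2. With 3 mice in a group no correlation was computed, and a correlation over all 6 mice would only restate the distance between the groups.

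Endothelial markers, like the receptors, stood lower in OP mice. The 16 blood endothelium markers summed to between 32.2 and 53.49 FPKM in OP mice and between 61.17 and 93.06 FPKM in OR mice, without overlap. Of these markers 15 had a log2 difference below 0 and 9 had an unadjusted limma-trend p below 0.05 and were lower in OP mice (3.53% of the genes tested were lower at that level and 0.503% higher), with a list median of -0.67. No marker of the list was at 0, and 1 was higher in OP mice, with a log2 difference of 0.22. The OP group lay wholly below the OR group for 7 of the 16 (6.81% of the genes tested), and the others overlapped. Those 7 included *Pecam1* (5.1, 4.25 and 6.8 FPKM in OP mice, 7.56, 9.24 and 11.72 FPKM in OR mice). They also included *Cdh5* (0.87, 0.94 and 1.19 FPKM in OP mice, 1.63, 2.6 and 3.86 FPKM in OR mice). Measured against the mean log2(FPKM + 1) of these markers in the same mouse, the difference between OP and OR mice came down to -0.04 (SE 0.14) for *Flt1*, -0.19 (SE 0.28) for *Kdr* and 0.03 (SE 0.08) for *Nrp1*. All of these overlapped between the groups. The mean of the macrophage markers also differed, by -0.70, against -0.63 for the blood endothelium markers. The receptors were not set against the macrophage markers, so the small differences are not shown to be particular to endothelium. Averaged over both receptor kinases the difference was -0.12. It lay between -0.28 and 0.01 with each mouse left out, with the median of the markers and with 0.1 added. The -0.28 came with 0.1 added, and adding 1 compresses the differences of low genes such as *Flt1* and *Kdr*. *Nrp2* relative to the markers gave 0.28 (SE 0.81).

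*Vegfa* was also set against the means of the epithelium and of the blood endothelium markers. The 15 epithelium markers had a median log2 difference of 0.02, with 6 below 0 and 0 past an unadjusted limma-trend p of 0.05. Single markers of the list ranged from -1.45 to 1.03, so the flat median covers unlike changes, and shifts among epithelial cell states were not tested. The highest marker, at 1.03, exceeded the 0.72 of *Vegfa*, so a comparison with the mean of the list does not hold for each marker. The 15 markers summed to between 20144.5 and 34676 FPKM in OP mice and between 21084.4 and 34576.3 FPKM in OR mice. Relative to the mean of those markers, *Vegfa* was 0.73 (SE 0.20) higher in OP mice, without overlap. Relative to the blood endothelium markers it was 1.34 (SE 0.26) higher, again without overlap. *Vegfa* was chosen with its direction known, and the blood endothelium markers were lower in OP mice. The direction of both differences was therefore largely set by the choice of genes, and only their sizes are described. Other marker lists differed between the groups too, and their part in the members' values was not tested. Medians were -0.89 for 10 fibroblast markers, of which 8 were lower at an unadjusted p below 0.05, and -0.91 for 10 macrophage markers, of which 8 were lower. They were -1.41 for 5 lymphatic endothelium markers (4 lower), -0.38 for 7 pericyte markers (2 lower), -0.83 for 8 adipocyte markers (1 lower), -0.32 for 10 smooth muscle markers (0 lower) and -0.12 for 8 neuron and glia markers (0 lower). None of these lists had a marker that was higher at that level.

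**Figure D3:**
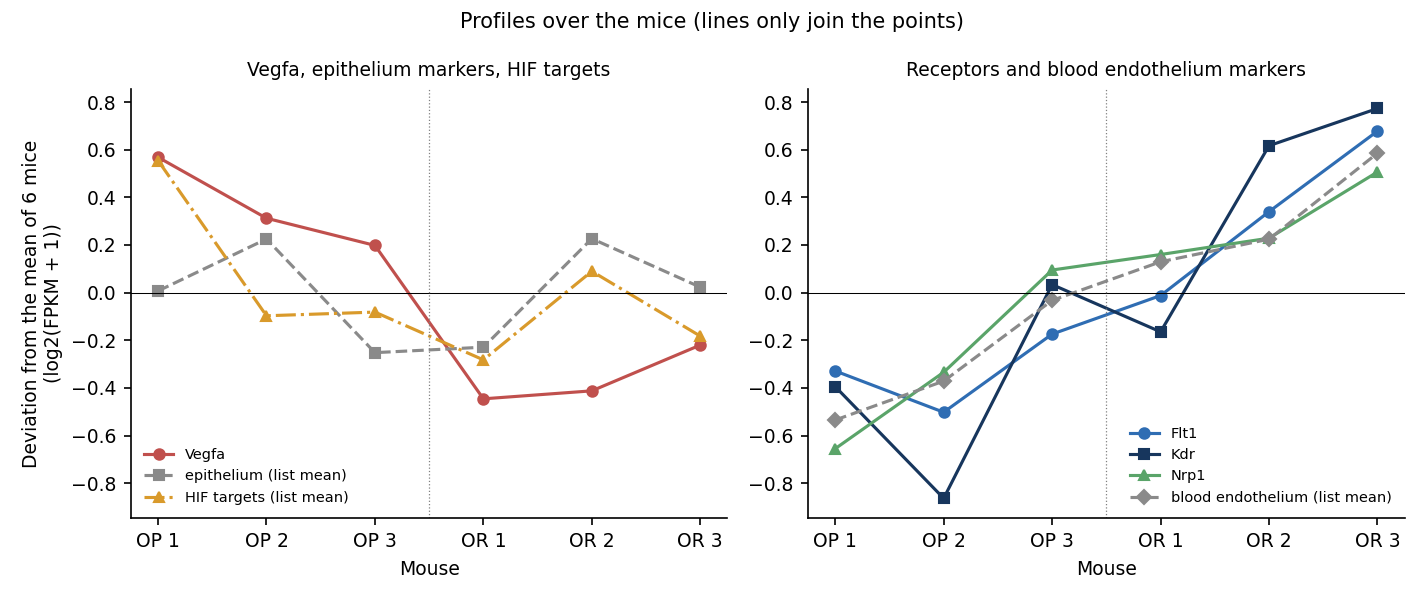
Deviation of log2(FPKM + 1) from its mean over the 6 mice, for *Vegfa*, the mean of the epithelium markers and the mean of the HIF targets (left) and for *Flt1*, *Kdr*, *Nrp1* and the mean of the blood endothelium markers (right), with lines that only join points of 1 gene or list. The receptors and the endothelial mean run from low in OP mice 1 and 2 to high in OR mouse 3, *Vegfa* runs the other way between the groups, and the epithelial mean shows no step between them.

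*Flt4* and *Vegfd*, which belong with *Vegfc* to the lymphatic branch of the family, lie outside the 8 members. *Flt4*, the receptor of VEGF-C, had 0.4, 0.44 and 1.15 FPKM in the OP mice and 0.87, 2.01 and 2.57 FPKM in the OR mice. It was lower in OP mice by limma-trend before adjustment, with a log2 difference of -0.74 (SE 0.29) and an unadjusted p of 0.0384, and did not pass after adjustment, with a Benjamini-Hochberg q of 0.945. *Vegfd*, the other ligand of VEGFR3, had 0.53, 0.16 and 0.24 FPKM in the OP mice and 0.76, 1.16 and 0.41 FPKM in the OR mice, with a log2 difference of -0.43 (SE 0.21) and an unadjusted p of 0.0790. Both genes overlapped between the groups and both are low. *Lyve1*, a hyaluronan receptor of lymphatic endothelium and some macrophages, had 1.99, 1.68 and 2.54 FPKM in the OP mice and 4.2, 8.58 and 11.82 FPKM in the OR mice. Against the mean of the lymphatic markers, *Flt4* was 0.37 (SE 0.07) higher in OP mice on the log2(FPKM + 1) scale, without overlap. Because *Flt4* is low, adding 1 compresses its difference more than those of the higher lymphatic markers. No other pseudocount was tried for this measure, so no direction relative to the lymphatic markers is drawn from it. Against the blood endothelium markers the difference of *Flt4* was -0.11 (SE 0.19), with overlap.

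In all, 7 lists of other genes of the pathway, written with earlier results known, held 84 genes, of which 78 passed the filter. Of these, 54 (69.2%) had a log2 difference below 0 and 24 above, where 70.1% of all genes tested were below 0. An unadjusted limma-trend p below 0.05 was reached by 7 that were lower in OP mice and by 0 that were higher. Over all genes tested the shares were 3.53% lower and 0.503% higher. None of the 78 passed a q-value of 0.2. The OP group lay wholly below the OR group for 10 of the 78 genes (6.81% of all genes tested) and wholly above it for 2 (1.63% of all genes tested). The same shares over all genes tested apply to the counts of each list below. The median log2 difference over the 78 was -0.12, near the -0.10 of all genes tested. *Sema3d*, *Sema3e*, *Plxna4*, *Angpt4*, *Esm1* and *Apln* did not pass the filter.

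Angiopoietins and Tie receptors take part in regulating vessel stability, and not all genes of this list act in the same direction. Of the 5 angiopoietin and Tie genes tested, all had a log2 difference below 0 and 3 were lower at an unadjusted p below 0.05. *Tek*, the receptor of angiopoietins, had 0.44, 0.79 and 0.97 FPKM in the OP mice and 1.22, 2.13 and 2.56 FPKM in the OR mice (log2 difference -0.76, SE 0.23, unadjusted limma-trend p of 0.0129, q of 0.945). The groups did not overlap for *Tek*. *Tie1*, its partner receptor, had 1.07, 0.86 and 2.42 FPKM in the OP mice and 2.12, 3.39 and 4.63 FPKM in the OR mice (log2 difference -0.85, SE 0.31, unadjusted limma-trend p of 0.0284, q of 0.945), and they did overlap. *Ptprb*, the endothelial phosphatase that restrains Tie2 and VEGFR2, had 0.61, 0.66 and 0.83 FPKM in the OP mice and 1.16, 1.47 and 1.99 FPKM in the OR mice (log2 difference -0.57, SE 0.18, unadjusted limma-trend p of 0.0161, q of 0.945).

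Downstream of the receptors most genes are expressed in many cell types. Of 32 signalling genes, 22 had a log2 difference below 0, the list median was -0.10, and 2 were lower at an unadjusted p below 0.05. *Cav1*, the caveolar coat protein of endothelium and smooth muscle, had 26.86, 23.62 and 25.45 FPKM in the OP mice and 47.84, 35.31 and 40.09 FPKM in the OR mice. These groups were well apart, with a log2 difference of -0.67 (SE 0.15), an unadjusted limma-trend p of 0.00260 and a q of 0.710, the lowest q of all pathway genes. *Nos3*, the endothelial nitric oxide synthase that VEGFR2 activates, had 0.53, 0.47 and 0.79 FPKM in the OP mice and 1.04, 0.92 and 1.52 FPKM in the OR mice, with a log2 difference of -0.43 (SE 0.18) and an unadjusted limma-trend p of 0.0466. Among 13 endothelial Notch and tip cell genes, 11 had a log2 difference below 0 and only *Nrarp*, a Notch feedback inhibitor, was lower at that level, with 9.88, 9.4 and 8.96 FPKM in the OP mice and 12.39, 13.02 and 18.3 FPKM in the OR mice (log2 difference -0.56, SE 0.19, unadjusted limma-trend p of 0.0185, q of 0.945). Among 9 semaphorins and plexins, the other neuropilin partners, 7 had a log2 difference below 0 and none passed, with the lowest unadjusted p of 0.0728 for *Sema3g* (log2 difference -0.55).

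Genes that govern or follow HIF did not pass any threshold. Of 7 HIF regulators, 5 had a log2 difference below 0, and the lowest unadjusted limma-trend p was 0.387 for *Hif1a* (20.61, 31.34 and 4.96 FPKM in the OP mice and 5.74, 17.35 and 8.92 FPKM in the OR mice, with overlap). Of 10 HIF targets, chosen without *Vegfa*, 8 had a log2 difference above 0, the list median was 0.30 and the lowest unadjusted p was 0.0691. That belonged to *Pgk1*, a glycolytic enzyme gene, which had 294.08, 267.76 and 213.18 FPKM in the OP mice and 175.98, 239.63 and 176.2 FPKM in the OR mice. None of the 10 targets separated the groups. As a deviation from its mean over the 6 mice, the mean of the targets was 0.55, -0.10 and -0.08 in OP mice 1 to 3. In OR mice 1 to 3 it was -0.28, 0.09 and -0.18. It stood highest in OP mouse 1, which also had the most *Vegfa*, but OR mouse 2 lay above OP mice 2 and 3, unlike for *Vegfa*. A link between the targets and *Vegfa* was not tested.

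**Figure D4:**
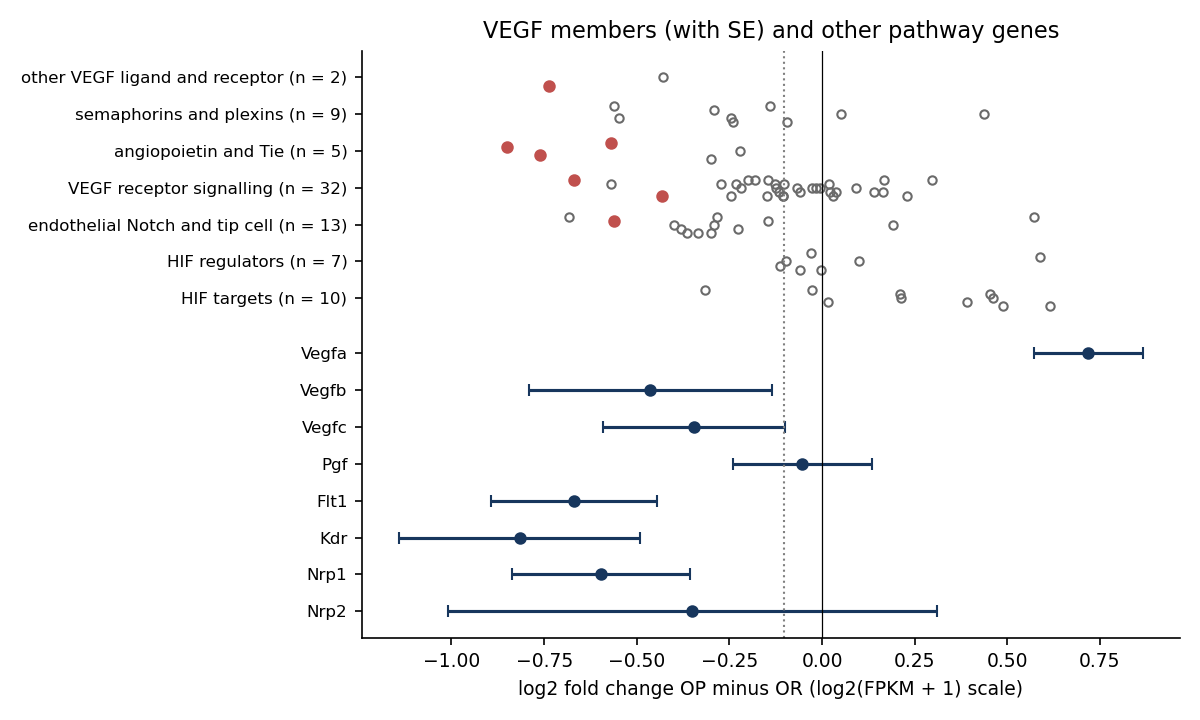
log2 difference OP minus OR on the log2(FPKM + 1) scale for the 8 members (dark points, with bars of 1 SE to either side) and for the other pathway genes tested, 1 row a list, with filled red points for an unadjusted limma-trend p below 0.05 and open points for the others (heights within a row only keep points apart). The solid line marks 0 and the dotted line the median of all genes tested, -0.10. *Vegfa* lies farthest to the right and *Kdr* farthest to the left of the members, and all 7 filled points lie on the lower side.

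The genes most like *Vegfa* and *Kdr* over the 6 mice were found by the root mean square difference of mean-centred log2(FPKM + 1) values over all genes tested. Nearest to *Vegfa* were *Nlrx1* (0.118), *Gadd45a* (0.166), *Styk1* (0.174), *Rhov* (0.176) and *Gm20498* (0.180), beside a root mean square of 0.382 for *Vegfa* about its own mean. *Nlrx1*, a mitochondrial member of the NLR family, had 10.65, 10.18 and 8.08 FPKM in the OP mice and 4.97, 6.44 and 6.15 FPKM in the OR mice. Nearest to *Kdr* were *Tie1* (0.134), *Adgre1* (0.135), *Plvap* (0.142), *Pdpn* (0.144) and *Col15a1* (0.154), beside 0.564 for *Kdr* itself. *Plvap*, which forms the diaphragms of fenestrated capillaries, had 5.51, 4.11 and 9.21 FPKM in the OP mice and 8.69, 15.66 and 18.35 FPKM in the OR mice. *Adgre1* encodes the macrophage marker F4/80, *Pdpn* encodes podoplanin of lymphatic endothelium and stroma, and *Col15a1* a basement membrane collagen. In the same ordering *Flt1* ranked 30 and *Nrp1* ranked 190 from *Kdr*, whereas *Kdr* ranked 12858 from *Vegfa*. *Vegfa* and *Kdr* were chosen with their opposite directions known, and the ordering runs over both groups. Such ranks therefore largely restate the distance between the groups, and shared or opposed regulation was not tested.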

How the data were processed

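RNA was measured in 1 colon library from each of 6 mice, 3 of them OP and 3 OR. The authors enriched mRNA, built strand-specific libraries, filtered reads with SOAPnuke, aligned them with Bowtie2 (2.2.5 per the labels) to a gene set, quantified with RSEM (1.2.12 per the labels) and deposited FPKM values with 2 decimals; the methods give other versions of both tools, and the submitters' processing notes name HISAT2 2.0.4 and GRCm39. FPKM carries no read totals, so depth is unknown and count tests, including the authors' DESeq2, were not run. All 6 columns were mapped by their labels and used.

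Genes with at least 0.5 FPKM in at least 3 mice were compared on log2(FPKM + 1) with limma-trend (limma 3.58.1 in R 4.3.3), with group as the only term and with Benjamini-Hochberg adjustment over 13520 genes. The pseudocount of 1 understates fold changes of low genes. The fit was tested on simulated data. SEs of ratios used each group's own spread. Alternatives were median-of-ratios scaling, a pseudocount of 0.1, 2 other filters, limma without trend, the replicate number as a block and each mouse left out.

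The members, the lists and the rules were chosen with earlier results of these data known. Genes named are the 8 members, *Vegfd* and *Flt4*, pathway genes with an unadjusted p below 0.05 (up to 5 a list, or else the lowest p), the 5 genes most like *Vegfa* and *Kdr*, and defining markers; *Plvap* and *Adgre1* come from the likeness rule. Same-numbered OP and OR samples are different mice, and their deviations had correlations of -0.14, -0.16 and 0.07, so they were not treated as pairs. The labels do not say how cages or litters were spread over the groups. Promoter windows came from RefSeq (GRCm38.p6), matched by symbol for 8 of 8 members.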

Additional observations from a re-analysis of the deposited data

How the results depend on the processing

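Depth is unknown, so the precision of values near 1 FPKM or lower (*Flt1*, *Kdr*, *Pgf*) cannot be given. Of 93 values of the members' log2 differences under the alternatives, 91 moved by less than the spread between mice, and the exceptions were *Flt1* and *Kdr* with a pseudocount of 0.1. *Vegfa* lay between 0.61 and 0.85. *Nrp2* changed sign without OP replicate 1 (0.41) and *Pgf* without OR replicate 2 (0.09). Of the members, 7 had a log2 difference below 0, and 4 of the 5 that remained with FPKM of at least 1 in all 6 mice. Between 6 and 7 did with a mouse left out. The log2 ratio of *Vegfa* to *Flt1* and *Kdr* lay between 1.68 and 2.35 above OR with a mouse left out, and was 1.64 higher with 1 added.

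By limma-trend 3 genes were called in all (2 without trend) and 545 had an unadjusted p below 0.05 (68 higher and 477 lower in OP mice). With median-of-ratios scaling these were 159 higher and 421 lower. The count of called genes was 0 with a pseudocount of 0.1, with median-of-ratios scaling, without the filter, with FPKM of at least 1 in all 6 mice and with the replicate block, and 0 to 1 with a mouse left out (1 without OP replicate 2). In those fits between 255 and 1285 genes had an unadjusted p below 0.05. Pathway genes lower in OP mice at an unadjusted p below 0.05 numbered 7, and 2 with FPKM of at least 1 in all 6 mice. With a mouse left out they numbered 2 to 15 (15 without OP replicate 3, 4 without OR replicate 2 and 2 without OR replicate 3). Pathway genes higher at that level numbered 0, and 0 to 3 with a mouse left out (3 without OP replicate 3, 2 without OP replicate 2 and 2 without OR replicate 2). None reached a q-value of 0.2 under any alternative. The replicate block changed no direction among the members, and the causes of these shifts were not tested.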
